A study of Mus musculus with 9 samples.

Results

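The comparison concerns 2 pools of spinal motor neurons (MNs), those that innervate the gastrocnemius (GS, abbreviated GC in the sample labels) and those that innervate the tibialis anterior (TA). The members were chosen by the muscle named in each sample title, which gave 6 of the 9 arrays of the series, 3 from GS mice and 3 from TA mice, and all 65956 transcript clusters on the array that are not controls were compared. The other 3 arrays, from MNs of the extensor digitorum longus (EDL), entered only the estimate of the spread. In the study, in which muscles lose their nerve endings to a different extent in mouse models of spinal muscular atrophy (SMA), the GS was classed as intermediate and the TA as vulnerable, and the question was whether the pools differ in wild-type mice before any disease.

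Every GS mouse and every TA mouse was a wild-type FVB animal, all from a single litter of both sexes, that received a tracer at the end of the second postnatal week and was killed within days. No disease allele and no drug was present in either pool, although the design text of the series speaks of an SMA background. The tracer was wheat germ agglutinin coupled to horseradish peroxidase (WGA-HRP), a lectin that moves from nerve endings to the soma. It was put into the GS muscle or the TA muscle of both hindlegs, and the stained MNs were cut from frozen cord sections with a laser. The labels describe the sections as cervical, whereas the paper places these MN cell bodies in the lumbar cord. Each array is 1 mouse, numbered 30, 13 and 31 in the GS pool and 0, 1 and 3 in the TA pool. No source used here explains these numbers, and a difference in handling that follows them cannot be told apart from the muscle.

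A motor pool is the set of MNs that supplies 1 muscle. The GS is a calf extensor that pushes the foot down, and the TA is a shin flexor that lifts it, so that these pools take part in opposite phases of a step. Pools acquire their identity in the embryo through Hox and LIM homeodomain transcription factors, and adhesion molecules and guidance receptors then sort the cell bodies and steer the axons. Laser capture of a large MN also takes up the synapses and glial processes that touch it, so myelin, astrocyte and microglial transcripts are usually present beside those of the neuron.

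Of the 9 MN markers, 6 had log2 signals far above the negative controls on every array, the lowest being 11.85 for Slc5a7, the choline transporter, in TA mouse 1. The homeodomain factors Isl1, Isl2 and Mnx1 were dimmer. Isl1 read 6.74 and Mnx1 6.66 in TA mouse 1, close to the negative control median of 6.48 on that array. Chat, the acetylcholine-synthesising enzyme, read 13.26, 13.38 and 13.30 in GS MNs, against 13.15, 12.94 and 13.59 in TA MNs, and Slc18a3, the vesicular acetylcholine transporter, read 13.75, 13.87 and 14.17 in GS MNs, against 13.21, 13.43 and 14.22 in TA MNs. The summed log2 level of the 9 markers was 17.66 to 17.88 in GS MNs and 17.01 to 17.73 in TA MNs. TA mice 0 and 1 stood apart from the other 7 arrays. Along the leading principal component (56.5% of variance) they lay at 77.3 and 98.5, whereas TA mouse 3 lay at 8.72 and the GS mice between -27.3 and -12.0. Positive control probe sets outranked negative ones with a probability of 0.779 and 0.778 on these 2 arrays, against 0.828 in TA mouse 3 and 0.831 to 0.838 in GS mice. Medians of the negative controls were 6.12 to 6.18 in GS mice and 6.27 to 6.48 in TA mice. The part of array quality in any result below was not tested beyond the values given with TA mouse 3 alone.

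Of the 65956 clusters, 418 passed limma's moderated test at an adjusted p under 0.05, 254 of them higher in GS MNs (0.385% of all clusters) and 164 lower (0.249%). Among 30098 genes with 1 symbol, 182 were higher (0.605%) and 44 lower (0.146%), and the 3 GS arrays all lay above the 3 TA arrays for 11.4% of genes and all below for 4.97%. The median difference over all clusters was -0.02. Of the clusters called, 97 stood for genes with an established name. Of these, 96 also had no overlap between the pools and a mean in the higher pool above the negative control median of every array. They were 61 calls higher and 35 lower in GS MNs. These calls depend on the arrays used for the spread: with the 6 GS and TA arrays alone, with 1 weight per pool, and without any one of GS mice 30, 13 and 31 or EDL mouse 33, limma called 0 clusters, although 7255, 8715, 7621, 7214, 9509 and 8956 had an unadjusted p under 0.05, against 10380 with all 9 arrays. Without EDL mouse 14 and EDL mouse 11, 6 and 12 were called. Without TA mouse 0 or TA mouse 1, 166 and 59 clusters were called, without both 106, and without TA mouse 3, 7177. With TA mouse 3 as the only TA array there is no spread within the TA pool, and that mouse is assumed to vary like the GS and EDL mice. All 418 differences kept their direction in each of these fits. The 418 were picked for their difference on these same arrays, so this is no independent test.

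**Figure D1:**
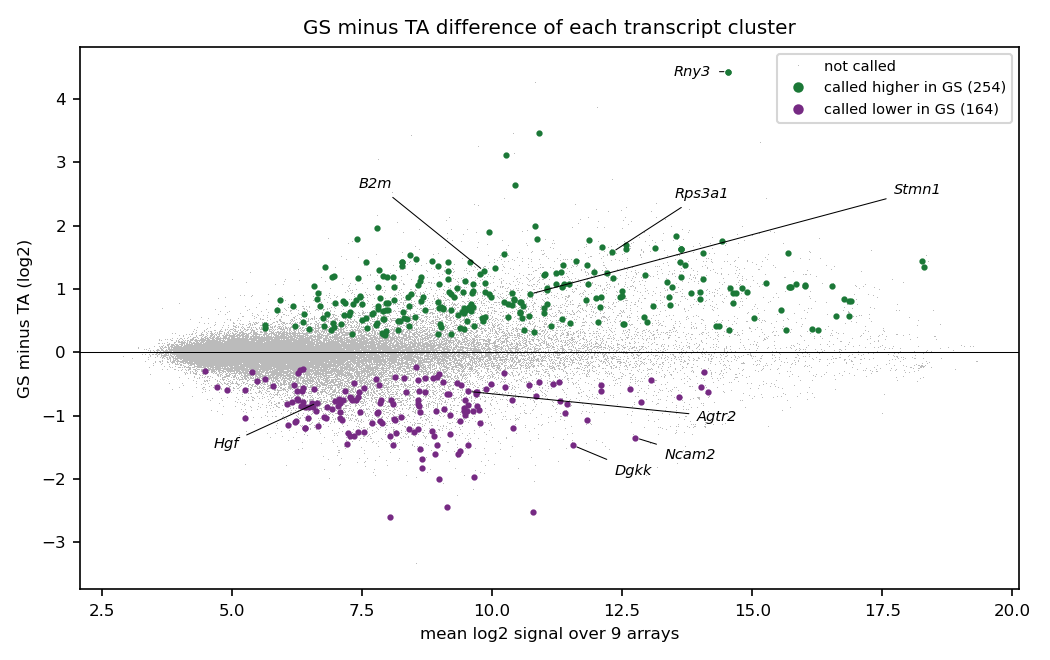
The difference between the GS and TA pools (log2, vertical axis) of each of 65956 transcript clusters against its mean log2 signal over 9 arrays (horizontal axis). Grey points were not called, and coloured points are the 254 clusters called higher and the 164 called lower in GS MNs by limma at an adjusted p under 0.05; Rny3 has the largest called rise, at 4.43.

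Among the largest rises in GS MNs were B2m, of antigen presentation, Cd63, of late endosomes, and the cathepsin inhibitors Cstb and Cst3. H2-D1, whose product pairs with that of B2m, was not called, and its values are given under other observations. B2m, the light chain of class I major histocompatibility molecules, read 10.18, 10.60 and 10.11 in GS MNs, against 8.94, 9.15 and 8.95 in TA MNs. The 3 TA arrays lay within a narrow band below all GS arrays, and the difference was 1.28 ± 0.14 (SE, adjusted p = 0.0319). Cstb, an intracellular inhibitor of cysteine cathepsins, read 12.62, 12.66 and 12.48 in GS MNs, against 11.04, 11.54 and 11.43 in TA MNs, a difference of 1.25 ± 0.13 (SE, adjusted p = 0.0315). Cst3, the secreted inhibitor cystatin C, read 15.31, 15.42 and 15.06 in GS MNs, against 14.46, 14.08 and 14.40 in TA MNs, a difference of 0.96 ± 0.13 (SE, adjusted p = 0.0394). Cd63, a tetraspanin of late endosomes, read 12.26, 12.36 and 12.26 in GS MNs, against 11.61, 11.06 and 10.98 in TA MNs, with TA mouse 0 nearest to the GS arrays and a difference of 1.07 ± 0.15 (SE, adjusted p = 0.0406). The GS mean of these 4 genes stood 1.35, 1.16, 0.87 and 1.31 above TA mouse 3. Ctss, a cathepsin of microglia and other phagocytes, was chosen after its values were seen and differed by 0.76 (adjusted p = 0.0472). Ly86, a partner of a toll-like receptor, was also called higher, but all 3 TA arrays lay under their own negative control medians and no size is given. Where 0.605% of all genes were called higher and 0.146% lower, none of the 6 microglial markers was called. Their median difference was 0.11, and their summed log2 level was 10.22 to 10.31 in GS MNs and 9.81 to 10.38 in TA MNs. Against TA mouse 3 alone their median difference was 0.30, all GS arrays lay above that mouse in 5 of the 6, and 1 was called, Itgam, an integrin of microglia, at 6.87, 6.89 and 6.86 in GS MNs, against 6.89, 6.86 and 6.49 in TA MNs. The part of microglial RNA in these differences was not tested. Cx3cr1, the fractalkine receptor that defines microglia, read 9.46, 9.35 and 9.34 in GS MNs, against 9.64, 9.43 and 8.76 in TA MNs, so the pools overlapped. In RNA from captured tissue, fewer cells of a type and less RNA per cell cannot be told apart.

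Several genes known from mature oligodendrocytes also rose in GS MNs, while the 5 oligodendrocyte markers were not called. Aspa, which splits N-acetylaspartate in oligodendrocytes, read 11.64, 11.44 and 11.48 in GS MNs, against 10.05, 10.58 and 10.25 in TA MNs, and the difference was 1.22 ± 0.13 (SE, adjusted p = 0.0304). Ermn, a cytoskeletal protein of myelinating oligodendrocytes, read 12.04, 11.50 and 11.73 in GS MNs, against 10.53, 10.78 and 10.88 in TA MNs, a difference of 1.03 ± 0.15 (SE, adjusted p = 0.0456). Among the 5 oligodendrocyte markers measured, none was called. Their median difference was -0.09, with 2 means higher and 3 lower in GS MNs. Mbp, the myelin basic protein, read 14.73, 14.74 and 14.77 in GS MNs, against 14.99, 14.76 and 14.78 in TA MNs, with a difference of -0.09 (adjusted p = 0.57), and Mog, on the outer face of myelin, read 11.90, 12.04 and 11.86 in GS MNs, against 11.80, 11.38 and 11.26 in TA MNs, with 0.46 (adjusted p = 0.164). The summed log2 level of the 5 markers was 16.54 to 16.62 in GS MNs and 16.51 to 16.92 in TA MNs, and none was near the floor of the array. Qdpr, an enzyme that regenerates tetrahydrobiopterin, and Plekhb1, both chosen after their values were seen, differed by 0.87 (adjusted p = 0.049) and 0.71 (adjusted p = 0.0356). These 4 belong to 14 further oligodendrocyte genes gathered after their values were seen, of which 4 were called higher and 0 lower, against 0.605% and 0.146% of all genes, and 8 lay above and 0 below without overlap, against 11.4% and 4.97%. Their median difference was 0.36, or 0.40 against TA mouse 3, above which all GS arrays lay in 13 of the 14. The 14 include genes picked because they were called, so these counts carry no test and cannot be weighed against the shares of all genes. The part of oligodendrocyte RNA in these differences was not tested.

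S100a1, a small calcium-binding protein, read 9.67, 10.03 and 9.35 in GS MNs, against 8.68, 8.09 and 8.43 in TA MNs, a difference of 1.28 ± 0.20 (SE, adjusted p = 0.0481). Itih3, a heavy chain that binds hyaluronan in the extracellular matrix, read 12.94, 12.91 and 12.69 in GS MNs, against 11.66, 11.51 and 11.83 in TA MNs, a difference of 1.18 ± 0.11 (SE, adjusted p = 0.0238). Gng11, a gamma subunit of heterotrimeric G proteins, read 9.75, 9.67 and 9.90 in GS MNs, against 8.93, 8.58 and 8.96 in TA MNs, a difference of 0.95 ± 0.12 (SE, adjusted p = 0.0378). Stmn1, or stathmin, which takes up tubulin dimers and is a reported modifier of SMA, read 10.998, 10.93 and 11.03 in GS MNs, against 10.16, 10.06 and 9.99 in TA MNs. The spread within each pool was under 0.2 on the log2 scale, and the difference of 0.92 ± 0.05 (SE, adjusted p = 0.0151) was called in 13 of the 19 alternative fits. Mplkip read 8.61, 8.31 and 8.65 in GS MNs, against 7.21, 7.70 and 7.59 in TA MNs, a difference of 1.02 ± 0.14 (SE, adjusted p = 0.0412). Lsm4, a ring protein of the U6 small nuclear RNA particle, read 9.93, 9.77 and 9.77 in GS MNs, against 8.77, 8.94 and 8.95 in TA MNs, a difference of 0.94 ± 0.12 (SE, adjusted p = 0.0394).

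The largest rise of any named gene was that of Rny3, a Y RNA, which is a short transcript of RNA polymerase III bound by the Ro and La proteins. It read 16.21, 16.37 and 15.68 in GS MNs, against 11.68, 10.21 and 13.10 in TA MNs, a difference of 4.43 ± 0.64 (SE, adjusted p = 0.0435). The TA arrays were spread over more than 2 log2 units and TA mouse 3 lay nearest to the GS arrays, 2.99 below their mean. The other Y RNA on the array, Rny1, read 13.33, 13.81 and 12.94 in GS MNs, against 9.42, 8.19 and 10.92 in TA MNs, but its difference of 3.85 ± 0.63 (SE, adjusted p = 0.0544) did not pass the test. Histone genes rose as well: H2aj, a replication-independent H2A histone, differed by 1.42 ± 0.22 (SE, adjusted p = 0.0477), with 9.82, 9.70 and 9.32 in GS MNs, against 8.36, 7.73 and 8.49 in TA MNs. H2ac10, a replication-dependent H2A gene, read 13.76, 13.87 and 13.60 in GS MNs, against 12.49, 12.82 and 12.60 in TA MNs, a difference of 1.10 ± 0.11 (SE, adjusted p = 0.0304). The H2A genes are near-identical in their coding sequence, so that the array may not separate them.

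**Figure D2:**
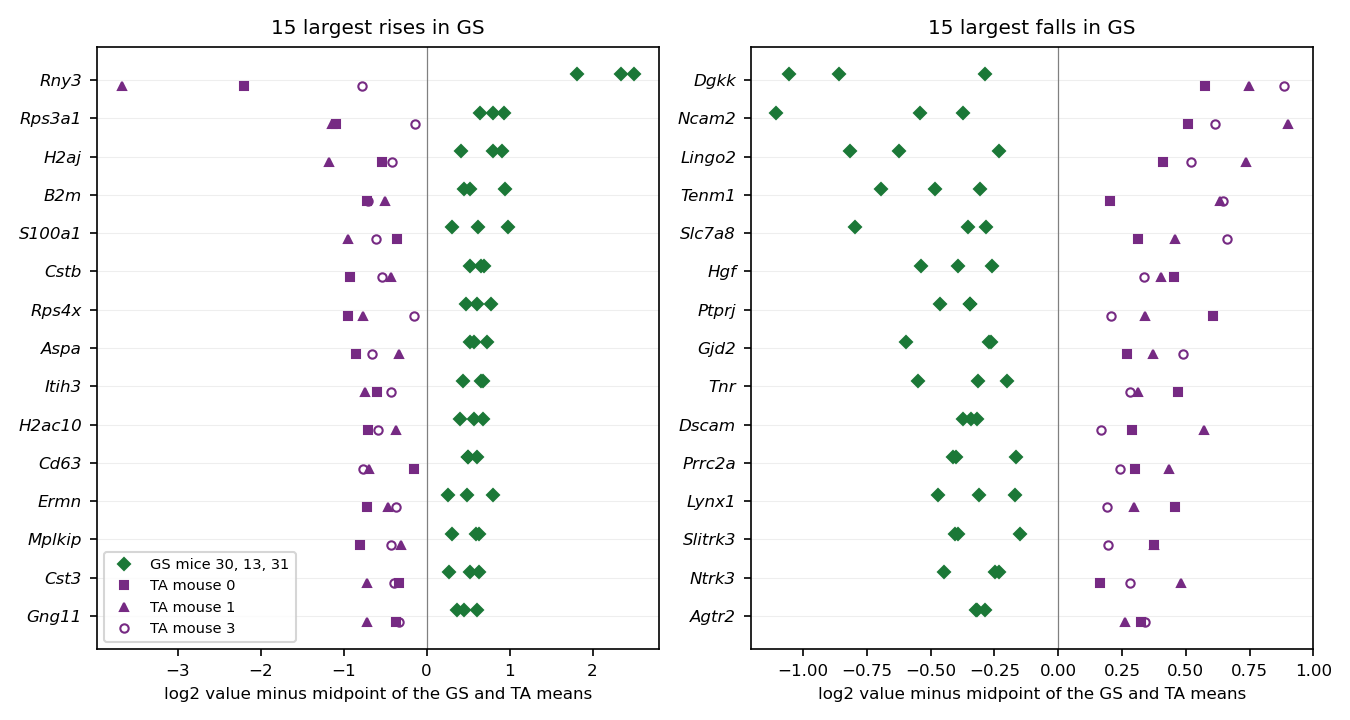
Signal of the 15 named genes with the largest rise in GS MNs (left) and of the 15 with the largest fall (right) in each mouse, as the log2 value minus the midpoint of the GS and TA means (horizontal axis). Diamonds are the 3 GS mice, and the square, triangle and open circle are TA mice 0, 1 and 3. No gene overlaps between the pools, because that was a condition for being shown. TA mouse 3 is the nearest TA mouse to the GS mice in Rny3, Rps3a1 and Rps4x and in others such as Itih3, Ptprj and Lynx1. In others TA mouse 0 or 1 is nearest, as in Cd63 and B2m.

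Genes with a role in cell adhesion were among the largest falls in GS MNs. Ncam2, a homophilic adhesion molecule of the immunoglobulin superfamily, read 12.55, 12.38 and 11.82 in GS MNs, against 13.43, 13.82 and 13.54 in TA MNs. GS mouse 31 was the lowest, and the difference was -1.35 ± 0.20 (SE, adjusted p = 0.043). Lingo2, a leucine-rich repeat transmembrane protein, read 7.78, 7.39 and 7.20 in GS MNs, against 8.42, 8.75 and 8.53 in TA MNs, a difference of -1.11 ± 0.16 (SE, adjusted p = 0.0424). Its relative Lingo4 read 10.71, 10.79 and 10.84 in GS MNs, against 11.18, 11.33 and 11.22 in TA MNs, a smaller but tighter difference of -0.46 ± 0.06 (SE, adjusted p = 0.0356). Tenm1, a teneurin that bridges the synaptic cleft, read 8.84, 9.01 and 8.63 in GS MNs, against 9.52, 9.96 and 9.96 in TA MNs, a difference of -0.99 ± 0.14 (SE, adjusted p = 0.043). Slitrk3, an organiser of inhibitory synapses, read 9.61, 9.36 and 9.37 in GS MNs, against 10.14, 10.14 and 9.96 in TA MNs, a difference of -0.63 ± 0.08 (SE, adjusted p = 0.0394). Dscam, an immunoglobulin protein of self-avoidance between neurites, read 10.64, 10.66 and 10.61 in GS MNs, against 11.27, 11.55 and 11.15 in TA MNs, a difference of -0.69 ± 0.10 (SE, adjusted p = 0.0456). Tnr, the matrix protein tenascin-R of perineuronal nets, read 13.34, 13.45 and 13.10 in GS MNs, against 14.12, 13.96 and 13.93 in TA MNs, a difference of -0.71 ± 0.09 (SE, adjusted p = 0.0394). Against TA mouse 3 alone the GS mean was lower by between 0.44 (Lingo4) and 1.29 (Ncam2) in these 7 genes.

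The other large falls included receptors and signalling proteins. Dgkk, a kinase that turns diacylglycerol into phosphatidic acid, read 10.74, 11.51 and 10.94 in GS MNs, against 12.37, 12.54 and 12.68 in TA MNs, and its difference of -1.47 ± 0.21 (SE, adjusted p = 0.0435) was the largest fall of a named gene. Slc7a8, a carrier of neutral amino acids, read 10.58, 11.02 and 11.09 in GS MNs, against 11.69, 11.83 and 12.03 in TA MNs, a difference of -0.96 ± 0.15 (SE, adjusted p = 0.0481). Ptprj, a receptor tyrosine phosphatase, read 11.16, 11.16 and 11.04 in GS MNs, against 12.11, 11.84 and 11.71 in TA MNs, a difference of -0.77 ± 0.11 (SE, adjusted p = 0.0406). Gjd2, or connexin 36, which forms electrical synapses between neurons, read 9.92, 10.25 and 10.25 in GS MNs, against 10.79, 10.89 and 11.01 in TA MNs, a difference of -0.75 ± 0.11 (SE, adjusted p = 0.0443). Ntrk3, the receptor of neurotrophin-3, read 11.90, 11.88 and 11.68 in GS MNs, against 12.29, 12.61 and 12.41 in TA MNs, a difference of -0.62 ± 0.09 (SE, adjusted p = 0.0443). Agtr2, the type 2 receptor of angiotensin II, read 9.21, 9.24 and 9.20 in GS MNs, against 9.85, 9.78 and 9.86 in TA MNs. Each pool lay within 0.1 log2 units, and the difference was -0.62 ± 0.06 (SE, adjusted p = 0.0286). Hgf, the ligand of the Met receptor, read 6.26, 6.39 and 6.11 in GS MNs, against 7.10, 7.05 and 6.99 in TA MNs, with -0.79 (adjusted p = 0.0238). It passed the condition on signal through the TA pool, and 1 of the 3 GS arrays lay under its own negative control median, so the size of this fall is not well measured. Lynx1, a membrane-anchored modulator of nicotinic acetylcholine receptors, read 13.89, 14.03 and 13.73 in GS MNs, against 14.66, 14.50 and 14.39 in TA MNs, a difference of -0.63 ± 0.09 (SE, adjusted p = 0.0459). Prrc2a, an RNA-binding protein, read 8.81, 8.80 and 9.04 in GS MNs, against 9.51, 9.64 and 9.45 in TA MNs, a difference of -0.65 ± 0.08 (SE, adjusted p = 0.0387).

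Among guidance receptors and ion channels, 2 further genes fell. Plxna4, a plexin that transmits semaphorin signals to the growth cone, read 12.31, 12.41 and 12.36 in GS MNs, against 12.86, 12.97 and 13.004 in TA MNs, with less than 0.2 log2 units between the mice of a pool and a difference of -0.58 ± 0.05 (SE, adjusted p = 0.0238). Cacna1c, the pore subunit of an L-type calcium channel, read 8.78, 8.68 and 8.68 in GS MNs, against 9.09, 9.15 and 9.10 in TA MNs, a difference of -0.40 ± 0.05 (SE, adjusted p = 0.0356). Glra2, a glycine receptor subunit of immature neurons, read 7.16, 7.41 and 6.81 in GS MNs, against 8.31, 8.13 and 8.03 in TA MNs, and its difference of -1.03 ± 0.16 (SE, adjusted p = 0.05) did not pass the test. Plxna2 read 11.09, 11.15 and 10.88 in GS MNs, against 11.66, 11.84 and 12.14 in TA MNs, also without passing, at -0.84 ± 0.14 (SE, adjusted p = 0.0526). Mmp9, a matrix protease that marks fast MNs and has been linked to their loss in other models of MN disease, read 8.79, 9.19 and 9.21 in GS MNs, against 9.75, 10.05 and 10.27 in TA MNs, with no overlap but a difference of -0.96 ± 0.15 (SE, adjusted p = 0.0512) that lay just outside the threshold.

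Most adhesion genes had a lower mean in GS MNs. Of 83 cadherin and adhesion genes measured, 7 were called lower and 0 higher in GS MNs, against 0.146% and 0.605% of all genes. The 3 GS arrays lay below the 3 TA arrays in 26 members and above them in 2, where the same shares of all genes were 4.97% and 11.4%. Besides the 5 described above, the calls were Cdh7, a cadherin, at 7.97, 7.85 and 8.09 in GS MNs, against 8.35, 8.36 and 8.38 in TA MNs and -0.39 (adjusted p = 0.0481), and Cntnap4, a neurexin relative, at 8.15, 8.21 and 8.19 in GS MNs, against 8.52, 8.55 and 8.72 in TA MNs and -0.41 (adjusted p = 0.0497), both named after their values were seen. The mean was lower in GS MNs for 68 members, and their median difference was -0.18, against 0.00 over all genes. Relative to the GS mean, the median member read 0.00, 0.03 and -0.03 in the GS mice and 0.09, 0.17 and 0.25 in the TA mice. TA mouse 3, the TA array most like the GS arrays on the first principal component, was thus the farthest from them in adhesion genes. With TA mice 0 and 1 left out, none of the 83 passed the test, and without TA mouse 3, 17 were called lower. With any one of the GS mice, the EDL mice or TA mouse 1 left out, none was called.

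Receptors for glutamate, GABA and glycine were lower by their means, with no single call. None of 41 members passed the test, but all GS arrays lay below all TA arrays in 17 of them and above in 0. Over all genes, 4.97% lay below and 11.4% above, and 0.146% were called lower and 0.605% higher. These shares apply to each list in this paragraph. The median receptor gene read 0.00, 0.02 and -0.01 in the GS mice and 0.08, 0.18 and 0.18 in the TA mice. Grin2b, a subunit of the NMDA receptor, read 9.81, 9.93 and 9.89 in GS MNs, against 10.15, 10.27 and 10.38 in TA MNs, with a difference of -0.39 (adjusted p = 0.0683). In the list of axon guidance genes, 1 of 66 members was called lower (Plxna4) and 0 higher, 14 lay below and 1 above without overlap, and the median difference was -0.12. Of 38 sodium and calcium channel genes, 1 was called lower (Cacna1c), 7 lay below and 2 above, with a median of -0.09. Cacna1b, the pore of the N-type channel of nerve endings, read 9.69, 9.74 and 9.85 in GS MNs, against 10.36, 10.51 and 10.16 in TA MNs, with -0.58 (adjusted p = 0.0721), and Hcn2, a pacemaker channel, ran the other way at 9.78, 9.84 and 10.32 in GS MNs, against 8.48, 8.99 and 9.42 in TA MNs, with 1.02 (adjusted p = 0.111). Voltage-gated potassium channels, with 0 of 36 called, 4 below and 1 above, had a median of -0.02, and synaptic vesicle genes, with 0 of 22 called and 2 below, had -0.02.

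**Figure D3:**
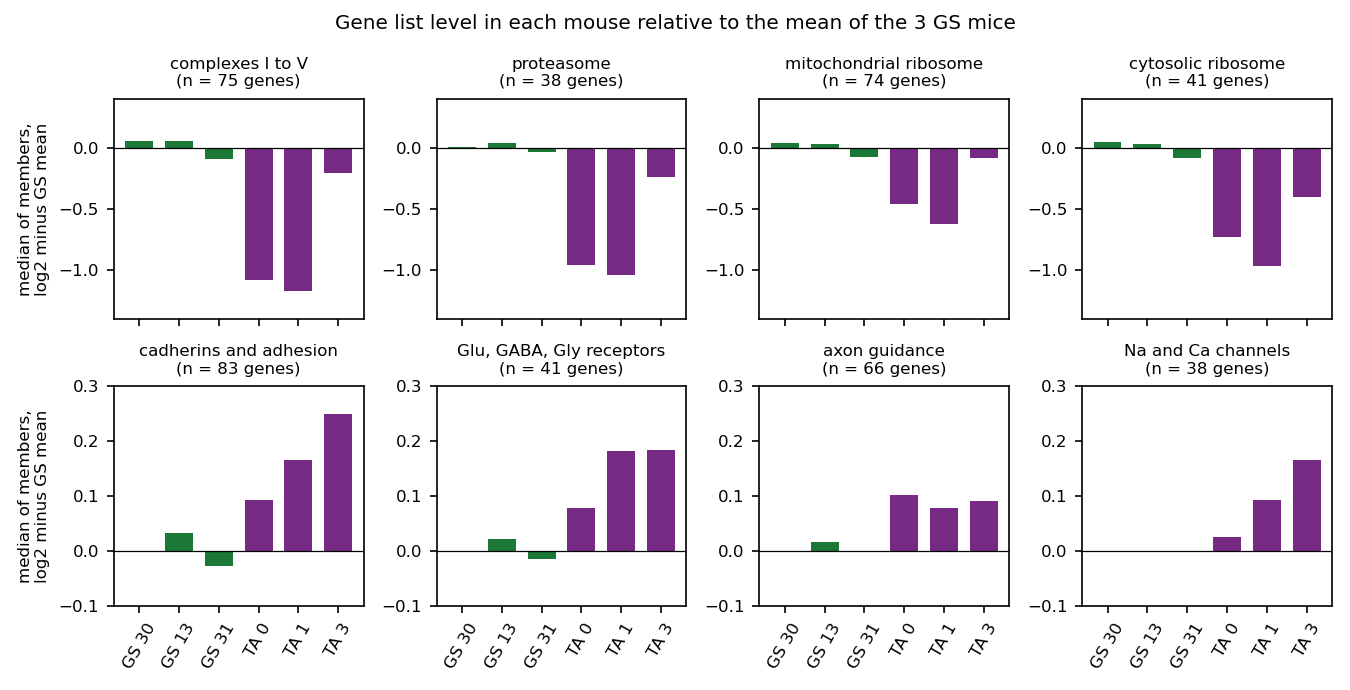
Level of 8 gene lists in each of the 3 GS mice (green) and 3 TA mice (purple), as the median over members of the log2 value minus the mean of the GS mice (vertical axis, which differs between the rows). In the upper row TA mouse 3 lies between the GS mice and TA mice 0 and 1, at -0.21 for complexes I to V; in the lower row it lies with the other TA mice or beyond them, at 0.25 for cadherins and adhesion.

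Most cytosolic ribosomal genes had a higher mean in GS MNs. Of 41 cytosolic ribosomal protein genes, 10 were called higher and 0 lower, 30 lay above and 0 below without overlap, and the median difference was 0.69. Over all genes, 0.605% were called higher and 11.4% lay above, and the median was 0.00. Rps3a1, a protein of the small subunit, read 12.93, 12.80 and 12.64 in GS MNs, against 10.91, 10.86 and 11.86 in TA MNs, with TA mouse 3 midway and a difference of 1.58 ± 0.25 (SE, adjusted p = 0.0498). Rps4x, the X-linked form of another small-subunit protein, read 11.36, 11.53 and 11.22 in GS MNs, against 9.80, 9.99 and 10.60 in TA MNs, a difference of 1.24 ± 0.19 (SE, adjusted p = 0.0497). Rpl7, of the large subunit, read 9.29, 9.32 and 9.17 in GS MNs, against 8.53, 8.48 and 8.75 in TA MNs, a difference of 0.68 ± 0.08 (SE, adjusted p = 0.0319). Rps9 read 8.22, 8.18 and 8.11 in GS MNs, against 7.41, 7.42 and 7.65 in TA MNs, a difference of 0.67 ± 0.09 (SE, adjusted p = 0.038), and Rps20 read 7.15, 7.06 and 7.02 in GS MNs, against 6.64, 6.71 and 6.71 in TA MNs, a difference of 0.39 ± 0.06 (SE, adjusted p = 0.0428). The other 5 called were Rpl11, Rpl22, Rpl27, Rplp0 and Rps24, named after their values were seen. These genes have many near-identical copies in the genome, so that their clusters may share signal. Relative to the GS mean, the median member read 0.05, 0.03 and -0.08 in the GS mice and -0.73, -0.97 and -0.41 in the TA mice. With any one array other than TA mouse 3 left out, or TA mice 0 and 1 together, none of the 41 was called, and without TA mouse 3, 30 were.

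Eef1d, which recycles elongation factor 1, was the only 1 of 51 translation factors called, at 9.38, 9.26 and 9.33 in GS MNs, against 9.02, 9.02 and 9.08 in TA MNs and a difference of 0.29 ± 0.04 (SE, adjusted p = 0.0481). Eif3h, of initiation factor 3, read 13.85, 14.16 and 13.84 in GS MNs, against 12.91, 12.69 and 13.30 in TA MNs, and its difference of 0.99 (adjusted p = 0.0546) did not pass. In the proteasome, which degrades ubiquitin-tagged proteins, 1 of 38 genes was called higher and 0 lower, while 30 lay above and 0 below, against 0.605%, 0.146%, 11.4% and 4.97% of all genes, with a median difference of 0.78. The 1 called was Psmc2, an ATPase of the regulatory particle, at 12.59, 12.59 and 12.64 in GS MNs, against 12.09, 12.09 and 12.29 in TA MNs and a difference of 0.45 ± 0.06 (SE, adjusted p = 0.0394). Psmb7, a catalytic subunit, read 14.35, 14.43 and 14.35 in GS MNs, against 13.26, 13.14 and 13.85 in TA MNs, with 0.96 (adjusted p = 0.0641). The median proteasome gene read 0.01, 0.04 and -0.03 in the GS mice and -0.96, -1.04 and -0.24 in the TA mice.

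Promoters from RefSeq (build GRCm38.p6, 300 bases across a start site) were searched on both strands for the letters CCGGAAG, a core that ETS-family factors bind, because many members of these lists had differences of the same sign. Among 27025 genes with a promoter in the table, 9.93% held it in any of their promoters, and the shares below are counted in the same way. The share was 44.4% of 36 cytosolic ribosomal, 36.9% of 65 mitochondrial ribosomal and 32.3% of 31 proteasome genes, and 13.3% of 30 genes of complex I, 38.9% of 18 of complexes II to IV and 37.5% of 16 of complex V. It was 0 of 60 adhesion genes, 3.57% of 56 axon guidance genes and 3.23% of 31 glutamate, GABA and glycine receptor genes. Among the named genes called, the share was 20.4% of 49 that rose and 17.2% of 29 that fell. The letters TATAAA were in 15.7% of all promoters and in 0% (complexes II to IV) to 16.7% (cytosolic ribosome) of those of these lists. A match describes the letters only. The promoters of 3 genes that rose and 2 that fell are shown, with and without a match in each direction, and the match is in capitals (CTTCCGG is the same motif on the other strand). Mrps25, which rose, and Ncam2, which fell, hold none and have no capitals. Psmc2 has 2 promoters, and a promoter with a match was preferred for display.
Rps3a1 (chr3:86142619-86142918, minus strand, match from position -9 relative to the start site): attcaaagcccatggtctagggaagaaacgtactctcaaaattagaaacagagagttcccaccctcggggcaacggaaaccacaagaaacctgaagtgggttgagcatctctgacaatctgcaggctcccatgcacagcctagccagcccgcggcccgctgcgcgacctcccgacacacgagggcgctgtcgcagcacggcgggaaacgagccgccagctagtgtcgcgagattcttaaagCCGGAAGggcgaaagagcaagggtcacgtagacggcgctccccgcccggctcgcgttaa
Psmc2 (chr5:21785025-21785324, plus strand, match from position -84 relative to the start site): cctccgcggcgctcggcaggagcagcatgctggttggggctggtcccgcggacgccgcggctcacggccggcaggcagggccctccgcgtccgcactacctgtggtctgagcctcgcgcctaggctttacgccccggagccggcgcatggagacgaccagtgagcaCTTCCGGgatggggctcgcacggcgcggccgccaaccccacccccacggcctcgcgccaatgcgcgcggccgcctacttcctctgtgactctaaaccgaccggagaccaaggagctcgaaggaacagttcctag
Mrps25 (chr6:92183974-92184273, minus strand): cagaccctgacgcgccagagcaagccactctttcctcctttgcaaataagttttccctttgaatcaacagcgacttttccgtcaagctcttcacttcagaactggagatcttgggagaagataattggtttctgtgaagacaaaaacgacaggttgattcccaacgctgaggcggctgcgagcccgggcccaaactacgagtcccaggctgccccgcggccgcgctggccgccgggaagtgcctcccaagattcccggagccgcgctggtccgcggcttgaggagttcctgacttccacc
Dscam (chr16:97170686-97170985, minus strand, match from position -233 relative to the start site): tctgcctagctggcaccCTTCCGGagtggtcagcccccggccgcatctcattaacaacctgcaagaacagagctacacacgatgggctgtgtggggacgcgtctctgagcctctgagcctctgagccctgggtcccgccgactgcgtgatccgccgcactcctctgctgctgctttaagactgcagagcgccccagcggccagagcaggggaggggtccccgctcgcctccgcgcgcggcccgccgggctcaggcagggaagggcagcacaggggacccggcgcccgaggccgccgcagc
Ncam2 (chr16:81200447-81200746, plus strand): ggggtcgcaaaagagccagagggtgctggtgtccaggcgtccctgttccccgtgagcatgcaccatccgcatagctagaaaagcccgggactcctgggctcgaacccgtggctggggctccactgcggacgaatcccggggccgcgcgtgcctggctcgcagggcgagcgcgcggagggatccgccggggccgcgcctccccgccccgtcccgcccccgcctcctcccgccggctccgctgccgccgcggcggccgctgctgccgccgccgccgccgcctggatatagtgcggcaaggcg

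Respiratory chain genes were higher in GS MNs by the means, but none passed the test. Of 75 subunits of complexes I to V encoded in the nucleus, 0 were called, 53 lay above (11.4% of all genes) and 0 below without overlap, all 75 means were higher, and the median difference was 0.80. The median member read 0.06, 0.05 and -0.09 in the GS mice and -1.08, -1.17 and -0.21 in the TA mice, so that TA mouse 3 was near the GS mice. Ndufa1, an accessory subunit of complex I, read 15.13, 15.10 and 15.01 in GS MNs, against 13.06, 13.04 and 14.81 in TA MNs, and its difference of 1.45 ± 0.43 (SE, adjusted p = 0.176) shrank to 0.27 against TA mouse 3. Ndufa2, of the same complex, read 14.78, 14.67 and 14.39 in GS MNs, against 12.70, 12.71 and 13.80 in TA MNs, with 1.55 (adjusted p = 0.0721). Cox5a, of cytochrome c oxidase, read 15.14, 15.24 and 14.84 in GS MNs, against 13.71, 13.40 and 14.49 in TA MNs, with 1.21 (adjusted p = 0.0896), and Uqcrq, of complex III, read 14.44, 14.28 and 14.09 in GS MNs, against 12.67, 12.36 and 13.96 in TA MNs, with 1.27 (adjusted p = 0.167). Atp5o, of the ATP synthase stalk, read 13.90, 13.93 and 13.71 in GS MNs, against 12.53, 12.45 and 13.32 in TA MNs, with 1.08 (adjusted p = 0.0825). Pgk1, the glycolytic enzyme phosphoglycerate kinase, read 12.78, 12.87 and 12.78 in GS MNs, against 10.75, 10.89 and 12.46 in TA MNs, with 1.44 (adjusted p = 0.161), and lay 0.35 above TA mouse 3.

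The mitochondrial ribosome had 1 of 74 genes called higher (0.605% of all genes) and 0 lower, 36 above (11.4% of all genes) and 0 below, and a median of 0.39, which was 0.08 against TA mouse 3. The gene called was Mrps25, of the small subunit, at 7.72, 7.68 and 7.64 in GS MNs, against 7.25, 7.30 and 7.32 in TA MNs and a difference of 0.39 ± 0.04 (SE, adjusted p = 0.0315). Tricarboxylic acid cycle genes (0 of 16 called) had a median of 0.39, glycolysis genes (0 of 13) 0.45, mitochondrial import genes (0 of 22) 0.28, chaperones (0 of 22) 0.47 and antioxidant enzymes (0 of 19) 0.44. Against TA mouse 3 alone these 5 medians were 0.05, 0.00, 0.04, 0.10 and 0.06. Sod1, superoxide dismutase, read 16.20, 16.22 and 15.98 in GS MNs, against 14.52, 14.83 and 15.85 in TA MNs, with 1.07 (adjusted p = 0.16).

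**Figure D4:**
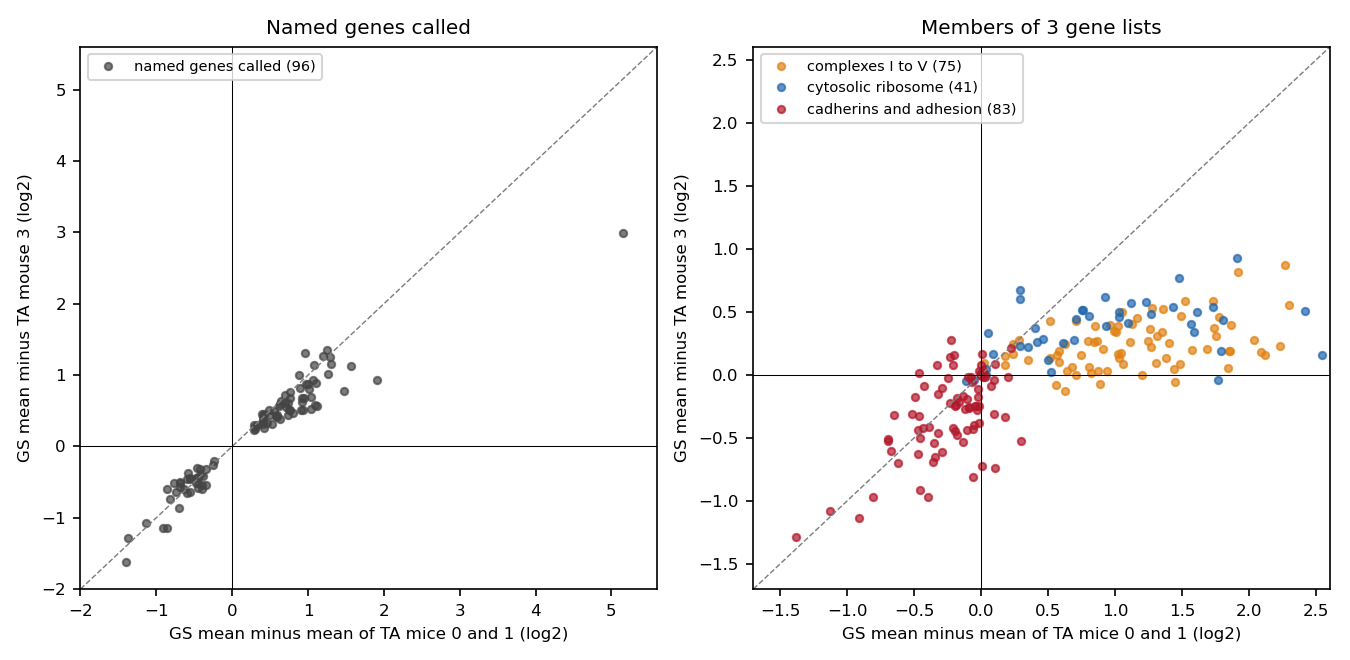
Difference of the GS mean from TA mouse 3 (vertical axis, log2) against its difference from the mean of TA mice 0 and 1 (horizontal axis, log2), for the 96 named genes called (left) and for all members of 3 lists (right). The dashed line marks equal differences; all 96 genes lie on the same side of 0 on both axes, most genes of complexes I to V lie well below the line, and adhesion genes lie on both sides of it.

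In the 96 named genes called, GS MNs differed from TA mouse 3 as well as from TA mice 0 and 1, since genes that overlapped were not counted. TA mouse 3 was the nearest of the TA mice to the GS mean in 38 of the 61 genes called higher and in 14 of the 35 called lower. The median difference of the 61 was 0.57 against TA mouse 3 and 0.76 against the mean of TA mice 0 and 1, and that of the 35 was -0.51 and -0.56. With TA mouse 3 as the only TA array, 7 of the 96 were called (Ndst3, Stmn1, Plxna4, Fnta, Cd63, Cbarp and Aspa), with the spread taken from the GS and EDL mice and on genes already chosen for no overlap with that mouse. The EDL mean lay on the GS side of the midpoint between GS and TA in 61 of the 61 genes called higher and in 33 of the 35 called lower, the exceptions being Agtr2 and Slc7a8, and beyond the GS mean in 36 and 8. These genes were chosen for a difference between GS and TA, with the EDL arrays in the spread, and TA mice 0 and 1 stood apart from all other arrays. Without a share over all genes beside it, the EDL position is no independent test. The mean of the 3 EDL arrays was 10.23 for B2m, 11.20 for Aspa, 11.12 for Stmn1, 12.43 for Ncam2, 12.63 for Plxna4 and 9.57 for Agtr2.

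Markers of MN subtype and position gave few calls. Over all genes, 0.605% were called higher and 0.146% lower, so few or no calls would arise in any list of this size. None of 15 MN identity genes was called. Isl1, a LIM homeodomain factor of MNs, read 9.52, 9.28 and 9.10 in GS MNs, against 8.20, 6.74 and 7.98 in TA MNs, and its difference of 1.66 ± 0.44 (SE, adjusted p = 0.135) did not pass, with TA mouse 1 the lowest. Nkx6-2, a homeodomain factor of the ventral cord, was the nearest to a call of 29 column and pool genes, at 8.32, 8.01 and 8.06 in GS MNs, against 7.23, 7.30 and 7.64 in TA MNs and 0.74 ± 0.12 (SE, adjusted p = 0.0561). Pvalb, a calcium buffer of some neurons, read 8.67, 8.27 and 8.23 in GS MNs, against 7.73, 7.77 and 7.65 in TA MNs, with 0.67 (adjusted p = 0.073). Chodl, a marker of fast MNs, read 14.12, 14.33 and 14.53 in GS MNs, against 14.48, 14.89 and 14.75 in TA MNs, with -0.38 (adjusted p = 0.259). Of 12 lumbar Hox genes 0 were called, and 1 lay above and 1 below without overlap. Of 13 cervical and brachial Hox genes 1 was called lower, Hoxc5, at signals below the negative controls, so that no value is given for it. All GS arrays lay below all TA arrays in 5 of the 13 and above in 2, against 4.97% and 11.4% of all genes. The median difference of the 13 was -0.01, and these counts were not tested. Hoxc6, a Hox gene of brachial MNs, was among those below. It read 9.47, 9.20 and 9.57 in GS MNs, against 10.51, 10.30 and 9.76 in TA MNs, with -0.78 (adjusted p = 0.113). Hoxb6 and Hoxc4 also lay below, with -0.32 (adjusted p = 0.175) and -0.36 (adjusted p = 0.246).

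Genes tied to SMA gave 2 calls, both higher in GS MNs. Over all genes, 0.605% were called higher and 0.146% lower, and the counts below were not tested against these shares. Smn1, the gene lost in the disease, read 9.16, 9.16 and 9.16 in GS MNs, against 9.13, 9.28 and 9.16 in TA MNs, with a difference of -0.03 ± 0.05 (SE, adjusted p = 0.798). The GS arrays, TA mouse 3 and the EDL arrays held the same value, so this small SE rests partly on tied values. Of 10 modifiers of SMA, 1 was called higher (Stmn1) and 0 lower. Agrn, or agrin, which clusters acetylcholine receptors at the endplate, read 10.71, 10.96 and 11.01 in GS MNs, against 11.64, 11.27 and 11.40 in TA MNs, with -0.54 (adjusted p = 0.103). In the list of 20 SMN complex and Sm protein genes, 1 was called higher (Lsm4) and 0 lower, with a median of 0.19. Ddit3, a transcription factor of the endoplasmic reticulum stress response, was the only 1 of 17 injury and stress genes called, at 10.01, 9.84 and 10.03 in GS MNs, against 9.57, 9.37 and 9.44 in TA MNs and a difference of 0.50 ± 0.07 (SE, adjusted p = 0.0428). Dynll1, a dynein light chain, was the only 1 of 41 motor protein genes called, at 9.53, 9.58 and 9.44 in GS MNs, against 9.09, 9.12 and 9.20 in TA MNs and a difference of 0.38 ± 0.05 (SE, adjusted p = 0.0406). Neurofilament genes were not called: Nefh read 17.17, 17.04 and 17.34 in GS MNs, against 16.29, 16.62 and 16.96 in TA MNs, with 0.56 (adjusted p = 0.159). No immediate early gene of 14 was called, and their median difference was -0.01.

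Markers of the other cells that a cut could hold were measured beside these genes. None of 5 astrocyte, 5 oligodendrocyte precursor, 6 endothelial and pericyte, 5 inhibitory interneuron, 2 excitatory interneuron and 1 blood marker was called. Over all genes, 0.605% were called higher and 0.146% lower. With so few markers, 0 calls therefore does not show equal content of a cell type. Cldn5, of endothelial tight junctions, read 9.35, 9.80 and 9.04 in GS MNs, against 8.13, 7.93 and 7.95 in TA MNs, and its difference of 1.39 ± 0.24 (SE, adjusted p = 0.0628) did not pass, while Kdr, an endothelial receptor, read 8.03, 8.65 and 8.25 in GS MNs, against 9.77, 8.74 and 8.93 in TA MNs, with -0.84 (adjusted p = 0.222). Slc32a1, the vesicular transporter of GABA and glycine, read 9.25, 7.998 and 8.01 in GS MNs, against 7.32, 7.30 and 7.31 in TA MNs, with GS mouse 30 apart from the other GS mice, and Slc17a6, a transporter of glutamate, read 7.96, 6.46 and 6.21 in GS MNs, against 6.71, 6.25 and 6.79 in TA MNs, again highest in GS mouse 30. The summed log2 levels were 14.81 to 14.999 in GS MNs and 14.97 to 15.18 in TA MNs for astrocytes, 11.73 to 11.96 in GS MNs and 11.74 to 12.21 in TA MNs for endothelium and pericytes, and 12.61 to 13.69 in GS MNs and 12.16 to 12.98 in TA MNs for inhibitory interneurons. None of these markers was at 0, since the array has no true zero, and their part in the differences above was not tested.

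The direction of the calls differed between classes of clusters. Of 4560 gene copies and pseudogenes, 101 were called higher (2.21%) and 2 lower (0.0439%), and 31 of the 101 were named as copies of ribosomal protein genes. Of 17498 clusters of named genes, 63 were higher (0.360%) and 36 lower (0.206%). The 33142 clusters with no symbol ran the other way, with 55 higher (0.166%) and 120 lower (0.362%), and all GS arrays lay below all TA arrays in 11.2% of them and above in 3.71%. None of 1724 olfactory and vomeronasal receptors was called, at a median signal of 5.20, below the negative control median of every array. Calls in the higher direction became more frequent with signal, being 0.0126% of clusters with a mean log2 signal up to 6 and 2.55% of those over 12, while calls in the lower direction were 0.0284% and 0.370% and most frequent, at 0.822%, between 8 and 10. No test of these shares was made, since clusters of 1 class vary together.

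**Figure D5:**
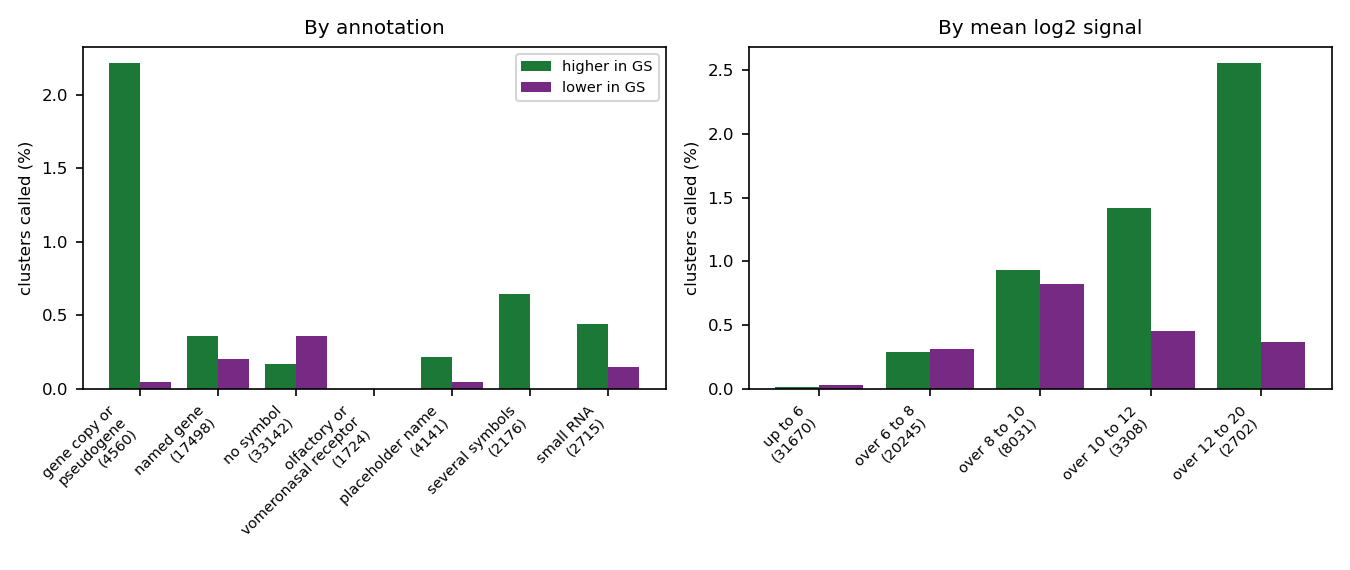
Share of transcript clusters called higher (green) and lower (purple) in GS MNs at an adjusted p under 0.05 (vertical axis, %), by annotation (left) and by mean log2 signal over 9 arrays (right), with the number of clusters in parentheses. By annotation, gene copies and pseudogenes have the highest share, at 2.21% higher, and by signal the clusters over 12, at 2.55%; clusters with no symbol are the one class with more calls lower than higher.

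Replicates differed more in the TA pool. The median standard deviation (SD) of a cluster was 0.147 over the 3 TA mice and 0.0855 over the 3 GS mice, and 68.4% of clusters had the larger SD in TA. Ndufa1 had an SD of 1.02 in TA MNs and 0.06 in GS MNs, whereas Plxna4 had 0.08 and 0.05. An exact permutation test of 3 against 3 arrays cannot give a p below 0.10, so p-values come from fits across all clusters, and because each array is 1 mouse they measure the spread between mice of 1 litter.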

How the data were processed

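The authors deposited log2 values, 1 array per mouse, made with sst-RMA in the methods, and with RMA and the Transcriptome Analysis Console in the submitters' processing notes (versions not given in the sources used here). They run from 2.83 to 19.5 and were used as deposited. Among the 6 GS and TA arrays, 42.9% of clusters had 2 or more equal values, and 440 clusters had all values equal. Equal values within a pool lower the spread entered in the test, as for Aspa, with an SD of 0.0 in EDL MNs. The origin of these ties was not tested. Of 72688 probe sets, 6732 controls were left out. Gene symbols came from the platform annotation, of which 330 were updated from the RefSeq gene table of GRCm38.p6; 33142 clusters had no symbol and 2176 several, and a gene with several clusters (427 genes) stands for its brightest. The test was limma's moderated linear model (version 3.58.1, R 4.3.3) with 1 mean per pool, 1 spread over 9 arrays and 1.40 prior degrees of freedom, two-sided, with Benjamini-Hochberg adjustment over 65956 clusters at an adjusted p under 0.05. Differences are GS minus TA on the log2 scale, where 1 is a doubling. No mouse was in more than 1 pool, so nothing was paired. Because log2 signals depend on the probes, levels were not compared between genes. Arrays hold no counts. The number of arrays is not the only limit on precision, since array quality and the spread between replicates also differed between the pools.

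The procedure was tested on simulated data with known differences. The simulation drew normal noise with the same spread in every pool. It added differences only to clusters with a spread at or below the median. It therefore does not cover the unequal spread of the pools or the equal values in these arrays. The members and the gene lists were chosen with earlier results of these data known. Genes named are the 15 largest rises and 15 largest falls among established names (no placeholders, copies, olfactory or vomeronasal receptors, microRNA, small nucleolar or nuclear RNA) that passed the test, did not overlap between the pools and had a mean in the higher pool above the negative control median of every array (at most 6.48), the top 3 members or fewer of each list by absolute moderated t (same signal condition), and Pgk1, Ndufa1, Uqcrq, Cox5a and Smn1. Any other gene was chosen after its values were seen.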

Additional observations from a re-analysis of the deposited data

How the results depend on the processing

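No paired analysis was possible because the pools share no mouse number. Of the alternatives to the 418 clusters called (254 higher and 164 lower in GS MNs), 0 were called with the spread of the GS and TA arrays alone and 0 with pool weights (0 higher and 0 lower in each). Without TA mice 0 and 1, 106 were called (56 higher and 50 lower); with quantile normalization, 782 (471 and 311); with a plain unmoderated test, 5 (4 and 1); with a variance trend and robust prior, 69 (42 and 27); and among 32118 clusters above negative controls, 1339 (771 and 568). Array weights gave 302 (222 and 80), median centring 398 and the mean over the clusters of a gene 420. Leaving out 1 mouse gave 0 to 7177 calls, 0 to 3721 higher and 0 to 3456 lower. With quantile normalization, 368 of the 418 remained, and without TA mice 0 and 1, 36. Against 10 cytosolic ribosomal and 7 adhesion genes called, 0 and 0 were called with the GS and TA arrays alone, pool weights, the plain test, the variance trend or TA mice 0 and 1 left out; 4 and 4 were called with median centring, 6 and 1 with array weights, 10 and 10 with quantile normalization and 14 and 13 among clusters above negative controls. The causes were not tested. No called gene named here changed direction in any of 19 alternatives. Most of these genes were chosen for no overlap between the pools, so leaving out or weighting arrays could not reverse them. Their constant direction is thus no test. Against values of -0.03 and 0.29, neither called, Smn1 was at 0.015 with median centring, 0.0082 with quantile normalization and from -0.060 to 0.015 when 1 mouse was left out, and H2-D1 at -0.039 without TA mice 0 and 1. Of 91 genes followed, 59 were called.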

Other observations

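Groups of genes outside the lists above were gathered after their values were seen, so their counts describe the pools and carry no test. Over all genes, 0.605% were called higher and 0.146% lower, 11.4% lay above and 4.97% below without overlap, and the median difference was 0.00. Of 10 transcripts of RNA polymerase III, Rn7s1 and Rn7s2 had the same value on every array and count as 1 measurement. Of the 9 measurements left, 1 was called higher (Rny3), 6 lay above and 0 below, and the median difference was 0.53, or 0.31 against TA mouse 3 alone. Rn7sk, the RNA that holds an elongation factor inactive, read 18.94, 18.78 and 18.84 in GS MNs, against 17.45, 16.90 and 17.94 in TA MNs, and its brighter cluster differed by 1.42 (adjusted p = 0.0512). Rn7s1, a signal recognition particle RNA, read 16.65, 16.75 and 16.63 in GS MNs, against 14.56, 14.39 and 16.38 in TA MNs, with TA mouse 3 close to the GS mice and a difference of 1.57 (adjusted p = 0.175). Bc1, a dendritic RNA made by the same polymerase, read 16.01, 15.62 and 16.02 in GS MNs, against 16.02, 15.67 and 15.90 in TA MNs, and the pools overlapped. The Y RNAs are part of this group.

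Of 28 replication-dependent histone genes, 11 lay above and 0 below, and 2 were called higher. H2ac14 read 14.74, 14.73 and 14.41 in GS MNs, against 12.86, 13.42 and 12.89 in TA MNs, a difference of 1.57 ± 0.17 (SE, adjusted p = 0.0319), in which all TA mice lay more than 1 log2 unit under the GS mean. In 19 genes of lysosomes and antigen presentation, 6 were called higher and 0 lower, 8 lay above and 0 below, and the median difference was 0.21. The 6 include Ly86, whose TA arrays were under their negative controls. H2-D1, a class I heavy chain that pairs with B2m, read 9.52, 9.63 and 9.73 in GS MNs, against 9.05, 9.29 and 9.67 in TA MNs, with 0.29 (adjusted p = 0.377). In 17 genes of trophic signalling, 2 were called lower (Ntrk3 and Hgf, of which Hgf was near the negative controls in GS MNs), 4 lay below and 0 above, and the median difference was -0.14. Ntrk2, the receptor of brain-derived neurotrophic factor, read 12.60, 12.62 and 12.57 in GS MNs, against 12.91, 12.72 and 12.79 in TA MNs, with -0.21 (adjusted p = 0.129). Gm765, a gene model with a placeholder name, had the largest fall of any gene with a symbol, at 10.41, 9.22 and 10.57 in GS MNs, against 12.62, 12.98 and 12.18 in TA MNs, a difference of -2.52 ± 0.38 (SE, adjusted p = 0.0474).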
